A study of Mus musculus with 12 samples.

Results

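*Tmem79* and 9 genes of epidermal acylceramide synthesis and use (*Abca12*, *Cers3*, *Elovl4*, *Cyp4f39*, *Alox12b*, *Aloxe3*, *Pnpla1*, *Sdr9c7* and *Abhd5*) were followed in RNA-seq of mouse periocular skin. The 10 genes were chosen by name, with results of the same comparison already known, from 21247 genes in the count table. Their levels, differences and calls in the fit over all genes are therefore given as a description, with no p-value printed for them. All 10 were counted in every library, with between 308 and 86329 reads, and all 10 were among the 20454 genes that passed the filter on low counts.

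The study asked what the adaptor protein MyD88 does in filaggrin-deficient skin. Skin around the eye was taken from 6-week-old mice on a BALB/c background, given as female, and 4 libraries labelled ft/ft were compared with 4 labelled ft/ftMyD88-/-. Both groups carry the flaky tail (ft) allele of *Flg* on both chromosomes, a spontaneous point mutation that removes filaggrin function, and the *ma* (matted) mutation that travels with it in older stocks was bred out according to the study's methods. The second group also lacks *Myd88* in every cell, from an in-house cross, and had visible inflammation of the periocular skin at this age, which ft/ft mice did not. Wild-type (WT) libraries were not analysed here.

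The outer epidermis keeps water in with stacked lipid sheets made mainly of ceramides. Acylceramides are its largest ceramides. An ultra-long fatty acid is elongated, hydroxylated at its far end, joined to a sphingoid base and esterified there with linoleic acid, then packed into lamellar granules as a glucosylceramide, and the linoleate is later oxidised so that the lipid can be fixed to the protein envelope of the dead cell. Loss of the human counterparts of the 9 enzymes and transporters causes ichthyosis, a scaling disease of skin, and *Tmem79*, which codes for a membrane protein of the lamellar granule system also called mattrin, is the gene mutated in *ma*.

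Each ft/ft library held between 18941705 and 29255129 counts, and each ft/ftMyD88-/- library between 15802957 and 27037997. The genotype could not be read from the counts: *Flg* stood at 103 ± 69.8 CPM (counts scaled to a common library size; mean ± SD, n = 4) in ft/ft and 242 ± 39.5 in ft/ftMyD88-/- (edgeR adjusted p = 0.12), and *Myd88* reads were no fewer in libraries said to lack the gene, with 41.2 ± 7.29 CPM there against 30.7 ± 4.74 in ft/ft (log2 fold change 0.42, SE 0.142, edgeR adjusted p = 0.0484). Counts per gene show neither exons nor bases, so neither the *Myd88* deletion nor the *ma* allele was checked. *Xist*, the transcript of the inactive X chromosome, averaged 0.0107 ± 0.0214 CPM over the ft/ft libraries, which is under the floor of 3 counts a library, and 49.4 ± 13.3 over ft/ftMyD88-/-. Y-linked *Ddx3y* averaged 65.0 ± 8.97 and 0.147 ± 0.225 CPM, which goes against the label female for the ft/ft libraries. Whether a difference below goes with the *Myd88* genotype or with sex cannot be told apart, and the names ft/ft and ft/ftMyD88-/- stand for the labels. All 10 genes are autosomal. The study gives as many mice as libraries in each group, so each library was taken as a mouse.

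Relative to ft/ft, 5 of the 10 genes were lower in ft/ftMyD88-/- at an adjusted p under 0.05 (edgeR quasi-likelihood test), 1 was higher and 4 did not pass. Across all genes tested 12.3% were called lower, 10.9% higher and 23.3% in either direction. The genes called lower were *Tmem79*, *Aloxe3*, *Elovl4*, *Cyp4f39* and *Alox12b*, and in each of the 5 every ft/ftMyD88-/- library was below every ft/ft library, as was the case for 14.2% of all genes. The reverse separation held for 12.5% of all genes and for none of the 10, and separation in either direction for 26.7% of all genes. The single gene called higher was *Cers3*, whose groups overlapped. The median log2 fold change was -0.45 over the 10 genes and -0.33 over the 9 without *Tmem79*, beside 0.01 over all genes tested. Because the genes were picked with these results known, nothing is read from the counts.

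**Figure D1:**
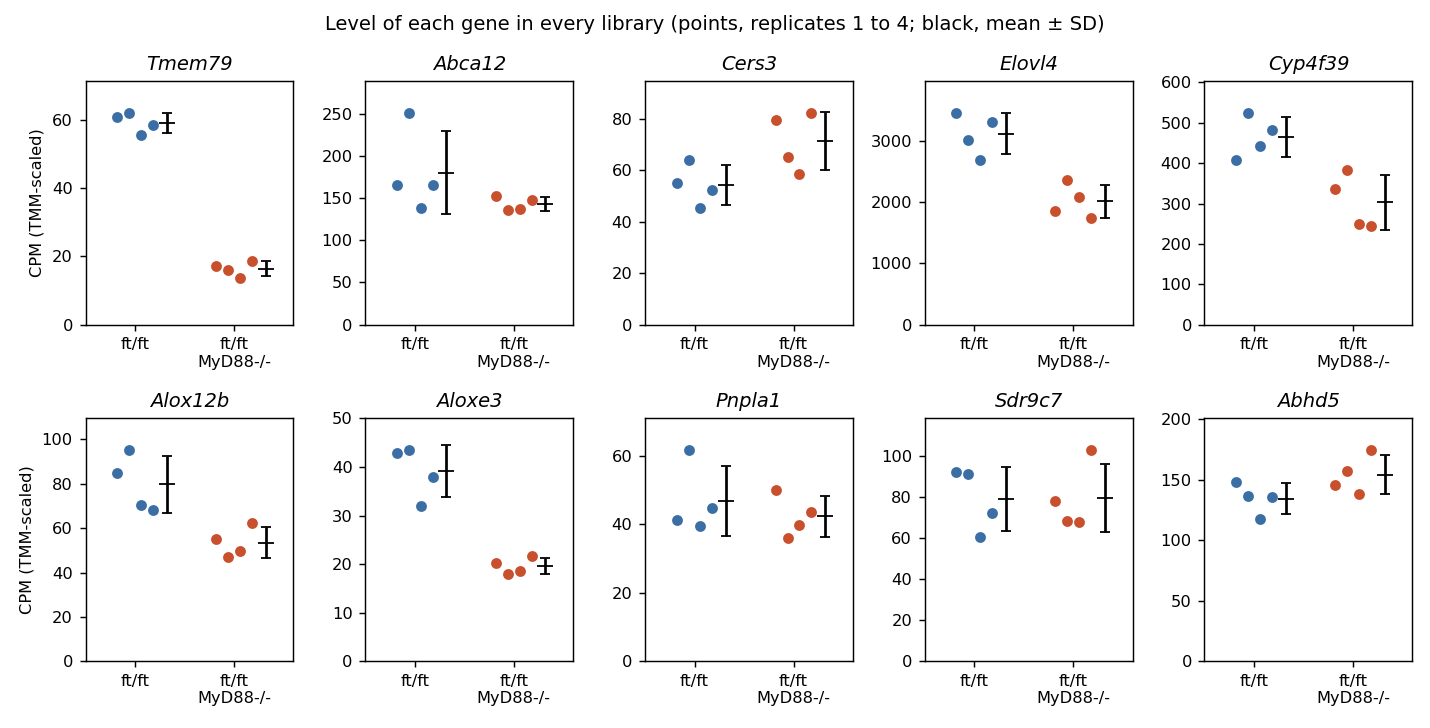
Level of each of the 10 genes in CPM scaled by TMM factors (vertical axis, from 0, its own range for each gene) in the 4 ft/ft libraries (blue) and the 4 ft/ftMyD88-/- libraries (orange), with black bars for the mean ± SD. *Tmem79* falls from 55.4 to 62.0 CPM in ft/ft to 13.8 to 18.8 CPM in ft/ftMyD88-/- with a wide gap, while *Sdr9c7*, *Pnpla1* and *Abhd5* overlap.

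*Tmem79* (GRCm38.p6 chromosome 3, 88328653 to 88334433) differed most among the 10. It stood at 60.8, 62.0, 55.4 and 58.4 CPM in ft/ft replicates 1 to 4 and at 17.1, 15.9, 13.8 and 18.8 CPM in ft/ftMyD88-/-. The highest ft/ftMyD88-/- library was thus far below the lowest ft/ft library. The means were 59.2 ± 2.92 and 16.4 ± 2.10 CPM (SD, n = 4), a log2 fold change of -1.85 (SE 0.103), which left 27.7% of the ft/ft level. The coefficient of variation between ft/ft libraries, 4.94%, was the smallest of the 10 genes in that group. In ft/ftMyD88-/- it was 12.8%, above those of *Abca12*, *Aloxe3* and *Abhd5*. Of the 2525 genes called lower, 125 had a lower log2 fold change than *Tmem79*. *Flg* itself lies 4.94 Mb away on the same chromosome.

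Promoters of 4 of the genes are shown to set the gene with the deepest fall beside the most abundant gene, a lipoxygenase that fell and the single gene called higher. Each line gives the 250 bases before the RefSeq transcription start, 5′ to 3′ on the gene's own strand in GRCm38.p6, with capitals where a searched motif matched on either strand.
Tmem79: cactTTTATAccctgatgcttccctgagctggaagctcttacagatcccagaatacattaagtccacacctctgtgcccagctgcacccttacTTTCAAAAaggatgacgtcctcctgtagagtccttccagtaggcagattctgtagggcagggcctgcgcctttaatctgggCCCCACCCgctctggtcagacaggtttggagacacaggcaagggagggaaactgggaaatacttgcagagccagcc
Elovl4: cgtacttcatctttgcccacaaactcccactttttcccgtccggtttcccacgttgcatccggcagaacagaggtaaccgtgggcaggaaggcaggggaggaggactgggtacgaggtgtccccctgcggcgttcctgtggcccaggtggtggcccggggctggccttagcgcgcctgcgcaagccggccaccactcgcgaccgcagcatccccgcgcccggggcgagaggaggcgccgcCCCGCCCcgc
Alox12b: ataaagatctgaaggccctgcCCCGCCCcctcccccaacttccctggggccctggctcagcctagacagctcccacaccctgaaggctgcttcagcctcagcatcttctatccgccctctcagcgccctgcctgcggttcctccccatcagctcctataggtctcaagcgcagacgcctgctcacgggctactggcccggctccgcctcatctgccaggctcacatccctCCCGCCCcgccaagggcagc
Cers3: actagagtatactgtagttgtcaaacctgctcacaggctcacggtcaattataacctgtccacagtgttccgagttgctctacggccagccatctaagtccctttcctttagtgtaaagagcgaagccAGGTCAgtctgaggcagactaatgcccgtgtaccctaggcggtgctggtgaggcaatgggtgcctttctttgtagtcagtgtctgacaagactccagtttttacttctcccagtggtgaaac
The intervals are chr3:88334434-88334683 on the minus strand for *Tmem79*, chr9:83806306-83806555 on the minus strand for *Elovl4*, chr11:69156822-69157071 on the plus strand for *Alox12b* and chr7:66743254-66743503 on the plus strand for *Cers3*. The *Cers3* start in that table lies inside the annotated gene, downstream of its first base. The capitals in *Tmem79* are a match to the TATA letters on the other strand, a C/EBP match and a KLF match, in that order. The first base of the TATA match is at -246 from the start. Those in *Elovl4* and *Alox12b* are SP matches, 1 and 2 of them. The capitals in *Cers3* are a match to a nuclear receptor half-site. GC content of the 250 bases was 53.2% in *Tmem79*, 69.6% in *Elovl4*, 66.0% in *Alox12b* and 49.6% in *Cers3*.

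A set of 10 motifs was searched on both strands from 250 bases before to 50 after the start, in 32851 RefSeq promoters, of which 9 belong to the 10 genes (*Aloxe3* had no entry). None was found in more than 2 of the 9. The KLF letters CCCCACCC were in *Tmem79* and *Pnpla1* and in 9.99% of all promoters, and the C/EBP letters TTNCNNAA were in the same 2 genes and in 40.7% of all promoters. SP letters CCCGCCC were in *Elovl4* and *Alox12b* (25.6% of all), the TATA letters TATAAA in *Tmem79* and *Sdr9c7* (13.6%), and the half-site AGGTCA in *Cers3* and *Abhd5* (16.3%). The STAT letters TTCNNNGAA were in *Sdr9c7* alone (8.30%) and the E-box CACGTG in *Elovl4* alone (7.15%), there 5 bases past the start. The AP-1 letters TGANTCA (7.81% of all), the GRHL letters AACCGGTT (0.146%) and the ETS letters CCGGAAGT (3.89%) were in none of the 9. Among the 4 genes with a promoter that were called lower, no motif was in more than 2. A match describes the letters in this window and is not evidence of a bound factor.

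The genes around *Tmem79* were called about as often as genes in general. Of the 10 nearest counted genes on either side, spanning 582 kb, 3 of 20 fell and 2 rose, beside 12.3% and 10.9% of all genes tested, and the median log2 fold change of the 20 was -0.15. *Glmp*, a lysosomal membrane protein gene that ends next to *Tmem79*, fell from 69.8 to 56.0 CPM (log2 fold change -0.32, SE 0.0733, edgeR adjusted p = 0.00877). *Smg5*, a nonsense-mediated decay factor on its other side, rose from 56.2 to 75.4 CPM (log2 fold change 0.42, SE 0.0946, edgeR adjusted p = 0.0074). Farther off, *Nes* fell (log2 fold change -0.60, edgeR adjusted p = 0.00672), *Paqr6* fell at a low level from 3.94 to 2.00 CPM (edgeR adjusted p = 0.0152) and *Mex3a* rose from 7.48 to 10.8 CPM (edgeR adjusted p = 0.0193). The log2 fold changes of the 20 neighbours ran from -1.18, in a gene that did not pass, to 0.52. With other settings 1 to 4 neighbours were called higher.

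**Figure D2:**
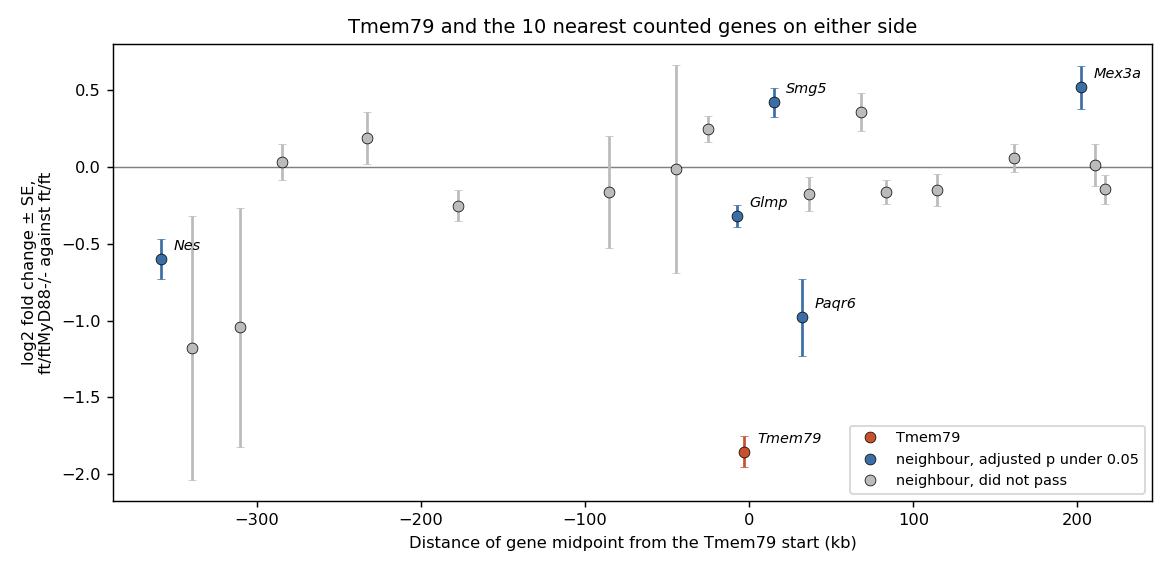
Log2 fold change of *Tmem79* (orange) and its 20 neighbours (vertical axis, ± SE) against the distance of each gene's midpoint from the *Tmem79* start in kb (horizontal axis), with neighbours past the test in blue and the others in grey. *Tmem79* sits at -1.85, below all 20 neighbours, and the adjacent *Glmp* and *Smg5* at -0.32 and 0.42.

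The genes whose log2 CPM profile over the 8 libraries was most like that of *Tmem79*, among 13507 compared, were *Scgb1a1* (root mean square distance 0.204), *Upk3bl* (0.218), *Gsta2* (0.221), *Tnnt1* (0.235) and *Lingo3* (0.242). Their log2 fold changes lay between -2.03 and -1.51. Of the acylceramide genes the closest was *Aloxe3*, at rank 144 (0.446). *Elovl4*, *Alox12b* and *Cyp4f39* followed at ranks 787, 809 and 824, and *Cers3* was last of the 10 at rank 11214 (1.13). The distance takes in the difference between the groups as well as the spread within them.

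*Elovl4* (chromosome 9, 83778692 to 83806305), the elongase that builds the ultra-long acyl chain, was the most abundant of the 10. Its libraries held 3460, 3019, 2695 and 3310 CPM in ft/ft and 1863, 2364, 2089 and 1736 CPM in ft/ftMyD88-/-. No ft/ftMyD88-/- library reached the lowest ft/ft library. The means were 3121 ± 338 and 2013 ± 276 CPM (SD, n = 4), a log2 fold change of -0.63 (SE 0.126) that left 64.5% of the ft/ft level.

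*Cyp4f39* (chromosome 17, 32452697 to 32493320), the mouse counterpart of the human cytochrome P450 that hydroxylates the end of that chain, followed at a lower level. It was at 408, 524, 443 and 482 CPM in ft/ft and at 335, 383, 249 and 244 CPM in ft/ftMyD88-/-. The groups came close, with 383 against 408 CPM at the edge, but did not overlap. The means were 464 ± 50.3 and 303 ± 67.8 CPM (SD, n = 4), a log2 fold change of -0.62 (SE 0.147).

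*Cers3* (chromosome 7, 66733118 to 66823692), the ceramide synthase that joins the chain to a sphingoid base, went the other way. It stood at 55.1, 64.0, 45.2 and 52.4 CPM in ft/ft and at 79.4, 65.0, 58.6 and 82.3 CPM in ft/ftMyD88-/-. Replicate 3 of ft/ftMyD88-/- was below replicate 2 of ft/ft, so the groups overlapped, though their means were 54.2 ± 7.76 and 71.3 ± 11.4 CPM (SD, n = 4). The log2 fold change was 0.39 (SE 0.129). This was the least stable of the 6 calls: it was lost with limma voom (0.38) and when any of ft/ft replicates 1, 3 and 4 or ft/ftMyD88-/- replicates 1, 2 and 4 was left out (0.32 to 0.44), and it held in the other 8 of 15 alternative fits.

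*Pnpla1* (chromosome 17, 28858286 to 28890308) codes for the transacylase that adds linoleate to the hydroxyceramide, and *Abhd5* (chromosome 9, 122351616 to 122381524) for the protein that presents triglyceride to it. Neither passed the test. *Pnpla1* was at 41.4, 61.8, 39.5 and 44.7 CPM in ft/ft and at 50.0, 35.9, 39.8 and 43.7 CPM in ft/ftMyD88-/-, and the ft/ft group was spread by its replicate 2. The means were 46.9 ± 10.2 and 42.3 ± 5.98 CPM (SD, n = 4), a log2 fold change of -0.15 with an interval of 2 SE from -0.44 to 0.15. Without ft/ft replicate 2 it was 0.015. *Abhd5* was at 148, 136, 117 and 135 CPM in ft/ft and at 145, 157, 138 and 175 CPM in ft/ftMyD88-/-. Of the ft/ftMyD88-/- libraries 2 lay above every ft/ft library, with means of 134 ± 12.7 and 154 ± 15.9 CPM (SD, n = 4) and a log2 fold change of 0.20 (SE 0.1). *Abhd5* was called higher when libraries were scaled by size only (0.37). It lies 3.01 Mb from *Myd88*.

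*Abca12* (chromosome 1, 71243090 to 71414910), the transporter that loads glucosylceramide into lamellar granules, stood at 166, 251, 138 and 166 CPM in ft/ft and at 153, 135, 138 and 148 CPM in ft/ftMyD88-/-. Replicate 2 of ft/ft was far above the other 3. Replicates 1 and 4 of ft/ft were also above every ft/ftMyD88-/- library, and replicate 3 lay within the range of that group. The means were 180 ± 49.1 and 143 ± 8.29 CPM (SD, n = 4), and the log2 fold change of -0.33 (2 SE from -0.64 to -0.02) became -0.12 without ft/ft replicate 2. The annotated gene *Gm39659* overlaps *Abca12*, and how reads in the overlap were assigned was not tested.

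The lipoxygenases that oxidise the linoleate were both lower. *Alox12b* (chromosome 11, 69157072 to 69169791), which acts first, was at 84.8, 95.4, 70.5 and 68.1 CPM in ft/ft and at 54.9, 46.8, 49.5 and 62.4 CPM in ft/ftMyD88-/-. The groups did not overlap, and the means of 79.7 ± 12.8 and 53.4 ± 6.89 CPM (SD, n = 4) gave a log2 fold change of -0.58 (SE 0.125). *Aloxe3* (chromosome 11, 69125417 to 69149115), which acts on the product and lies 7.96 kb from *Alox12b*, was at 42.9, 43.6, 32 and 37.9 CPM in ft/ft and at 20.2, 18, 18.5 and 21.6 CPM in ft/ftMyD88-/-. Every ft/ftMyD88-/- library was well under the lowest ft/ft library. The means were 39.1 ± 5.36 and 19.6 ± 1.64 CPM (SD, n = 4), a log2 fold change of -1.0 (SE 0.114), so the level was 50.1% of that in ft/ft.

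*Sdr9c7* (chromosome 10, 127898535 to 127911761), the dehydrogenase that works on the lipoxygenase product, did not share that difference. Its libraries gave 92.3, 91.5, 60.6 and 72.5 CPM in ft/ft and at 78.2, 68.7, 67.8 and 103 CPM in ft/ftMyD88-/-. The ranges of the groups overlapped, with the lowest library in ft/ft and the highest in ft/ftMyD88-/-. The means were 79.2 ± 15.4 and 79.5 ± 16.6 CPM (SD, n = 4), and the interval of 2 SE around the log2 fold change ran from -0.33 to 0.33.

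Per kilobase of exon the 10 covered a wide range. Levels on this scale compare genes only if reads come from the whole transcript. Whether they do was not tested, since the labels and the study's methods name different protocols. *Elovl4* led in ft/ft with 1031 CPM per kb, *Cyp4f39* followed with 163, and *Aloxe3* was last with 6.11. Between them lay *Alox12b* at 32.8, *Sdr9c7* at 26.1, *Abhd5* at 22.5, *Tmem79* at 20.3, *Cers3* at 16.6, *Abca12* at 12.2 and *Pnpla1* at 9.69 CPM per kb. Neighbours in the order among these 7 had overlapping ranges over libraries, whereas the steps from *Elovl4* to *Cyp4f39*, from *Cyp4f39* to *Alox12b* and from *Pnpla1* to *Aloxe3* did not. In ft/ftMyD88-/- the ends of the order were the same, with *Elovl4* at 665, *Cyp4f39* at 106 and *Aloxe3* at 3.06 CPM per kb. *Sdr9c7* (26.2), *Abhd5* (25.8), *Alox12b* (22) and *Cers3* (21.9) overlapped as neighbours, as did *Abca12* (9.69) and *Pnpla1* (8.75). *Tmem79* was 6th in ft/ft and 9th in ft/ftMyD88-/-, at 5.63 CPM per kb, apart from both neighbours in the order.

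The 10 genes were followed for their part in the epidermis, but which cells of the biopsy held their reads was not tested. Of 12 markers of differentiated keratinocytes 5 fell, 1 rose and 6 did not pass (median log2 fold change -0.43), and their summed level was 19228 to 24847 CPM in ft/ft and 13723 to 17134 CPM in ft/ftMyD88-/-. *Lor*, a major envelope protein, fell by 1.51 on the log2 scale (edgeR adjusted p = 2.3e-05), *Rptn* rose (1.31, edgeR adjusted p = 0.0478) and *Krt1* did not pass (-0.10). Of 6 basal keratinocyte markers 5 fell (median -0.63), with sums of 13758 to 16911 and 9586 to 11819 CPM. Among 6 genes of hyperproliferative epidermis 1 rose, *Sprr1b* (log2 fold change 3.19, edgeR adjusted p = 0.0174), and 5 did not pass. *Krt16* was close to the threshold (2.58, edgeR adjusted p = 0.053), with every ft/ftMyD88-/- library above every ft/ft library. The median log2 fold change of the 6 was 1.24, and the sums were 2797 to 3653 and 3309 to 5703 CPM. In whole biopsies, fewer cells of a type and less RNA per cell cannot be told apart.

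To set the genes against the keratinocyte signal, each was expressed relative to the mean log2 level of those markers in the same library. Relative to the 12 differentiated markers *Tmem79* was still lower (a log2 difference of -1.36), as was *Aloxe3* (-0.50), each without overlap between the groups. On this scale *Elovl4* (-0.15), *Cyp4f39* (-0.15) and *Alox12b* (-0.083) overlapped between the groups. *Cers3* (0.88), *Abhd5* (0.69) and *Sdr9c7* (0.49) were higher without overlap, and *Pnpla1* (0.36) and *Abca12* (0.20) overlapped. Relative to the 6 basal markers, the difference was -1.23 for *Tmem79*, 1.01 for *Cers3* and 0.82 for *Abhd5*, without overlap, while *Aloxe3* (-0.37) overlapped. These ratios are within a library and show unequal change, not which gene was constant. Levels were not set against markers of other cell types.

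**Figure D3:**
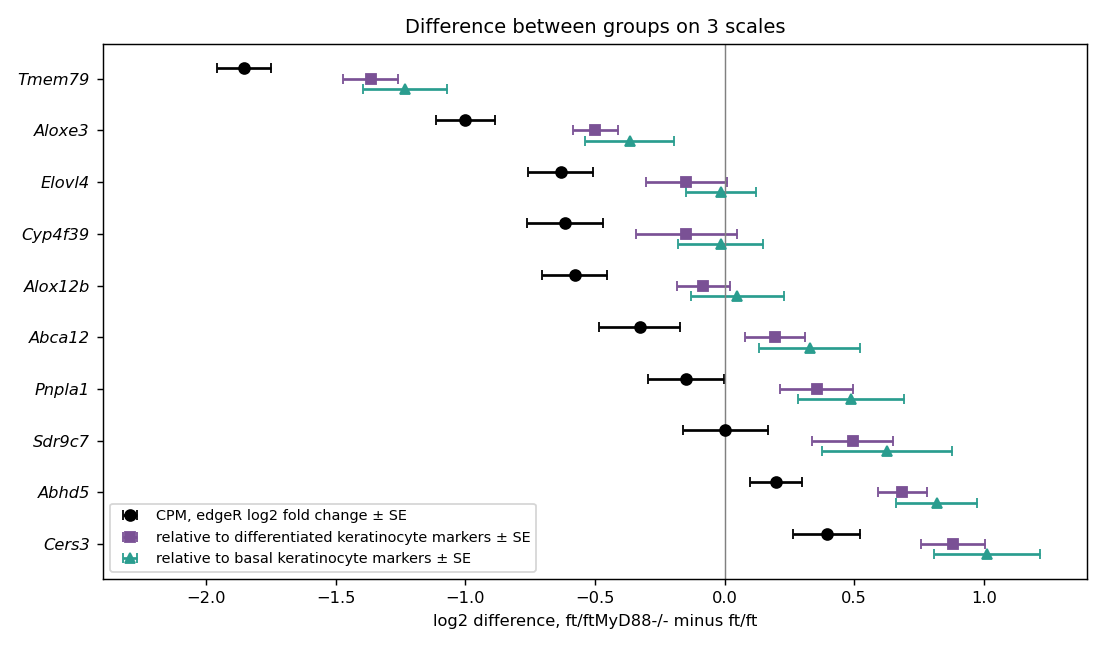
Difference of each gene between ft/ftMyD88-/- and ft/ft on a log2 scale (horizontal axis), as the edgeR log2 fold change ± SE (black circles), relative to differentiated keratinocyte markers (purple squares) and relative to basal keratinocyte markers (green triangles), with SEs of the last 2 from the SDs of 4 libraries per group. *Tmem79* stays below -1 on all 3 scales, whereas *Elovl4*, *Cyp4f39* and *Alox12b* lie within 0.15 of 0 once set against either marker list.

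Other cell types also moved. Markers of sebocytes, the lipid cells of the sebaceous and eyelid glands, fell in 8 of 11 (sums of 21884 to 24926 CPM in ft/ft and 13073 to 19228 CPM in ft/ftMyD88-/-), and all 6 skeletal muscle markers fell (7689 to 10438 and 3002 to 5597 CPM). Of 8 markers of conjunctival and simple epithelium 2 fell (1501 to 2951 and 1095 to 2092 CPM), and all 6 proliferation genes rose (161 to 241 and 301 to 388 CPM). None of 6 hair follicle and 6 adipocyte markers passed, with hair follicle sums of 1214 to 1951 and 1629 to 10438 CPM and adipocyte sums of 892 to 1821 and 984 to 1892 CPM. Of 4 neutrophil genes tested 1 rose, with sums of 20.8 to 40.1 and 26.6 to 49.3 CPM. The part of these cell types in the differences of the 10 genes was not tested.

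Next, 119 other genes, sorted into lists by function or family, were read in the same fit. They include 31 paralogs of the 10 genes and 6 relatives of *Tmem79* by sequence, which are not all genes of the pathway. Of the 119, 49 fell (41.2%), 10 rose (8.4%) and 60 did not pass, beside 12.3% lower and 10.9% higher over all genes. The paralogs held 11 of the falls and 2 of the rises, and the relatives of *Tmem79* held 1 and 1. The median log2 fold change of the 119 was -0.30, beside 0.01. The counts for single lists that follow are to be read against the same shares. With scaling by library size only 32 fell and 24 rose.

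The 10 genes listed for making or activating long and very long acyl chains all fell, with a median log2 fold change of -0.52. The elongases *Elovl3* (0.18) and *Elovl5* (-0.06), listed as paralogs of *Elovl4*, did not pass. *Elovl6*, which elongates C16 fatty acids, fell from 790 ± 113 to 255 ± 48.3 CPM (SD, n = 4; log2 fold change -1.63, SE 0.152, edgeR adjusted p = 5.25e-05). *Tecr* (log2 fold change -0.66) and *Hacd2* (-0.61), which code for the last and the third enzyme of each elongation cycle, fell with edgeR adjusted p = 5.72e-04 and 0.00287. The acyl-CoA synthetase *Acsl4* fell by 0.57 on the log2 scale (edgeR adjusted p = 0.0015). With 1 library left out 7 to 9 of these 10 were called lower, and with scaling by library size only 5 were.

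Ceramide synthesis genes did not move together. Of 12 tested, 3 rose, 3 fell and 6 did not pass (median log2 fold change -0.04). *Cers5*, which prefers shorter acyl chains than *Cers3*, fell from 183 ± 44.0 to 57.8 ± 8.48 CPM (SD, n = 4; log2 fold change -1.66, edgeR adjusted p = 2.45e-04), a direction opposite to that of *Cers3*. *Sptlc3*, a subunit of the first enzyme of sphingoid base synthesis, fell (-0.84, edgeR adjusted p = 0.00101), as did *Cers4* (-0.46, edgeR adjusted p = 0.0459). *Sptssb* (0.41), *Kdsr* (0.34) and the desaturase *Degs1* (0.29) rose, with edgeR adjusted p = 0.0121, 0.0178 and 0.043. Without ft/ft replicate 3 only 1 of the 12 rose, and with scaling by library size only 5 did.

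Genes that process glucosylceramide and sphingomyelin fell in 7 of 11, and 1 rose (median log2 fold change -0.41). The 1 that rose was *Ugcg*, which makes glucosylceramide, from 32.1 ± 4.08 to 56.8 ± 6.00 CPM (SD, n = 4; log2 fold change 0.82, edgeR adjusted p = 4.58e-04). The ceramidase *Acer1* (-0.89), the sphingosine phosphate lyase *Sgpl1* (-0.68) and the sphingomyelinase *Smpd1* (-0.63) fell most, with edgeR adjusted p = 8.62e-04, 5.22e-04 and 9.15e-04. *Acer2*, a second ceramidase, fell by 0.48 on the log2 scale (edgeR adjusted p = 0.00497).

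Among 18 genes of the cornified lipid envelope and other ichthyoses 7 fell, 1 rose and 10 did not pass (median log2 fold change -0.34). *Spink5*, an inhibitor of skin proteases, fell from 1222 ± 152 to 693 ± 66.7 CPM (SD, n = 4; edgeR adjusted p = 5.72e-04), and *Cdsn*, the adhesive protein of corneocytes, from 919 ± 91.4 to 562 ± 86.9 CPM (SD, n = 4; edgeR adjusted p = 0.00182). *Lipm* (-0.59) and *Prss8* (-0.58) fell with edgeR adjusted p = 0.00314 and 0.00606. *Casp14*, a protease of terminal differentiation, rose (1.10, edgeR adjusted p = 0.0225), a call lost when the replicate number was added as a block and when ft/ft replicate 1, 3 or 4 or ft/ftMyD88-/- replicate 1 was left out. Of 9 genes linked to lamellar granules, the compartment of *Tmem79* and *Abca12*, 3 fell and 1 rose. The granule proteases went opposite ways, with *Klk5* lower (-0.83, edgeR adjusted p = 0.00116) and *Klk7* higher (0.47, edgeR adjusted p = 0.0163), and *Cav1* (-0.65) and *Ap1s3* (-0.50) fell with edgeR adjusted p = 0.0254 and 0.00893. The call of *Klk7* was lost without ft/ft replicate 3 or 4.

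**Figure D4:**
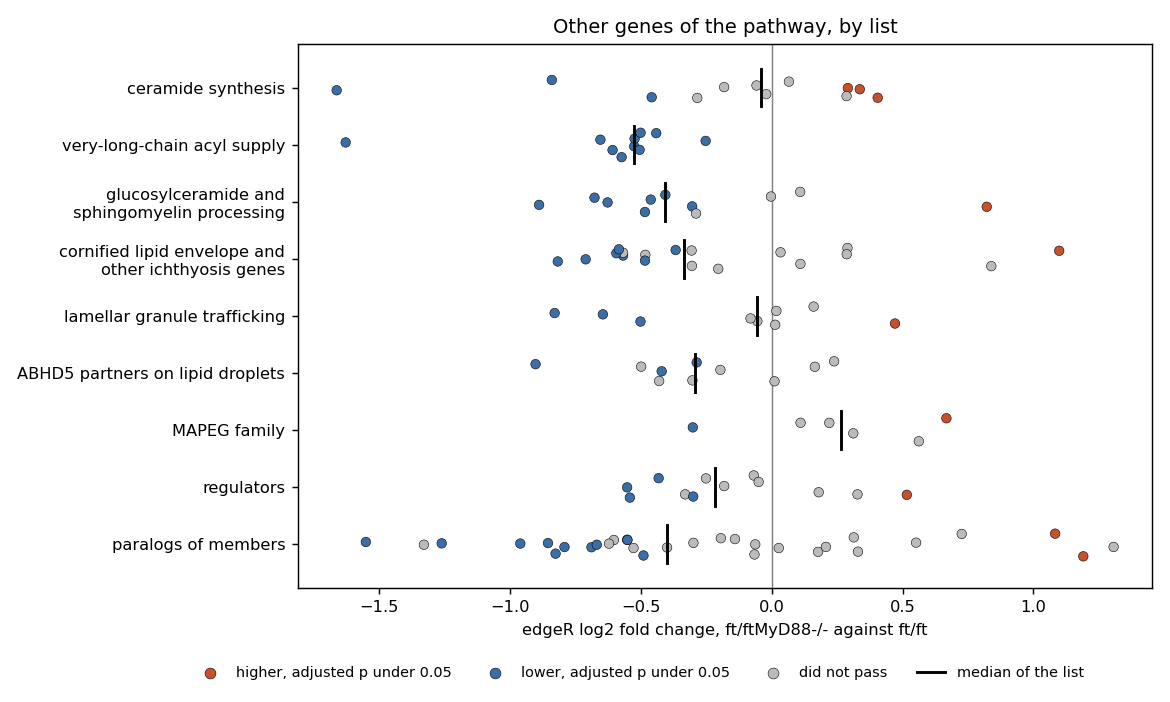
EdgeR log2 fold change (horizontal axis) of each of 119 tested genes by list, with relatives by sequence among the lists. Points are coloured by whether the gene was called higher (orange), lower (blue) or neither (grey) in ft/ftMyD88-/-, with a black bar at each list's median. All 10 acyl supply genes lie below 0 and are blue, whereas ceramide synthesis genes sit on both sides with a median of -0.04.

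Partners of *Abhd5* on lipid droplets fell in 3 of 10 and none rose (median log2 fold change -0.30). The droplet coat genes *Plin5* (-0.90), *Plin2* (-0.42) and *Plin3* (-0.29) fell, with edgeR adjusted p = 0.00223, 0.0213 and 0.0292. With a library left out 1 to 4 of the 10 were called lower (1 without ft/ftMyD88-/- replicate 1 or 4), and 4 were with DESeq2 and with limma voom. With scaling by library size only 1 was lower and 1 higher. The lipase *Pnpla2*, the best known target of *Abhd5*, was at 215 ± 34.1 and 159 ± 30.7 CPM (SD, n = 4). It did not pass, close to the threshold (log2 fold change -0.43, edgeR adjusted p = 0.0504). *Tmem79* belongs by sequence to the MAPEG superfamily of membrane enzymes, of which 6 other genes were tested: *Mgst2* rose (0.67, edgeR adjusted p = 0.0201), *Mgst1* fell (-0.30, edgeR adjusted p = 0.0411) and 4 did not pass (median 0.27). The call of *Mgst1* was lost without ft/ft replicate 1, 3 or 4 or ft/ftMyD88-/- replicate 1, 3 or 4, with the replicate block and with scaling by library size only, under which 4 of the 6 rose. That of *Mgst2* was lost without ft/ft replicate 4, and 3 of the 6 rose without ft/ftMyD88-/- replicate 1. Of 12 transcription factors of barrier lipid genes 4 fell and 1 rose (median -0.22). The nuclear receptors *Rora* (-0.55), *Ppara* (-0.54), *Rxra* (-0.43) and *Nr1h2* (-0.30) fell, with edgeR adjusted p = 0.0041, 0.00979, 0.00412 and 0.0179, and *Ppard* rose (0.52, edgeR adjusted p = 0.016), a call lost without ft/ft replicate 3. With scaling by library size only 2 of the 12 were lower and 2 higher.

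Close relatives of the 10 genes were compared last, with the same limit on levels per kb as above. Of 31 tested paralogs 11 fell, 2 rose and 18 did not pass (median log2 fold change -0.40). *Elovl4* was the highest of its family, at 1031 CPM per kb in ft/ft beside 308 for *Elovl3*, which did not pass, and 677 for *Elovl1*. *Cyp4f39* likewise stood alone at 163 CPM per kb, with *Cyp4f13* the most abundant of its listed relatives at 3.66. The lipoxygenase *Alox12e* was above *Alox12b* in ft/ft, at 160 against 32.8 CPM per kb, and it also fell (from 451 ± 55.6 to 280 ± 35.2 CPM; SD, n = 4; edgeR adjusted p = 0.00164). *Abca12* was level with *Abca1*, at 12.2 and 13.0 CPM per kb, and *Abca1* did not pass either (-0.14). *Pnpla1*, at a mean of 9.69 CPM per kb, was below *Pnpla5* (35.8), *Pnpla8* (13.1) and *Pnpla2* (71.1), the last listed above as a partner of *Abhd5*. None of these relatives passed, and their ranges per kb were not compared with that of *Pnpla1*. *Sdr9c7* was far above *Rdh16* (26.1 against 1.05 CPM per kb). *Abhd4*, the relative of *Abhd5*, fell from 121 ± 3.47 to 67.0 ± 2.62 CPM (SD, n = 4; log2 fold change -0.86, SE 0.0746, edgeR adjusted p = 2.84e-05). The other large fold changes were in *Abca5* (-1.55, edgeR adjusted p = 5.07e-04), *Cyp4f15* (-1.26, edgeR adjusted p = 0.00293) and *Cyp4f37* (-0.96, edgeR adjusted p = 0.00477), which fell, and in *Rdh16* (1.08, edgeR adjusted p = 4.22e-04) and *Cyp4f18* (1.19, edgeR adjusted p = 0.0249), which rose. Levels were low for *Cyp4f15* (2.07 CPM in ft/ft and 0.857 in ft/ftMyD88-/-) and *Cyp4f18* (0.707 and 1.64 CPM), and the groups of *Cyp4f18* overlapped. Without ft/ft replicate 1, 3 or 4 or ft/ftMyD88-/- replicate 2, 1 of the 31 was called higher, and with scaling by library size only 5 were. Members of the *Cyp4f* family are similar in sequence, and how the counting split reads between them was not tested.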

How the data were processed

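The authors deposited raw read counts per gene, without normalization, for the 8 ft/ft and ft/ftMyD88-/- libraries. According to the study's methods, polyA libraries were sequenced as single-end reads, mapped to GRCm38.p6 (HISAT, tophat2) and counted with default HTSeq. The sample labels instead name total RNA, a fixed-tissue protocol and Cell Ranger, and which of the 2 made the counts was not tested. HTSeq by default takes reads of a single strand, whereas the TruSeq mRNA kit named there does not mark strand. WT samples (4) were not analysed here, and the planned comparison with them was not run.

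Groups came from the sample labels. The 10 genes and all gene lists were chosen with earlier results of these data known, and no list is independent evidence. Genes with at least 10 counts over the 8 libraries (20454) were fitted by the quasi-likelihood method of edgeR 4.0.16 under R 4.3.3 (robust dispersion, TMM factors, genotype as the only term, two-sided test), with Benjamini-Hochberg adjustment over all of them at 0.05. TMM factors were 0.922 to 0.954 in ft/ft and 1.04 to 1.09 in ft/ftMyD88-/-. CPM are counts divided by the TMM-scaled library size. Biological variation between replicates (BCV) came to 0.182. A library at 0 counts can hold up to 3, which is 0.102 to 0.183 CPM (counting error only). Replicates differed by more than counting noise (chi-square per degree of freedom 15.1 to 65.9), and no pair was treated as duplicates. The labels number the libraries without naming animals, and the study gives 4 mice in each group, so each library was taken as 1 mouse.

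Exon lengths came from GENCODE vM21, and gene positions and promoters from RefSeq on GRCm38.p6, in which 16066 of the gene names were found. Likeness to *Tmem79* was the root mean square distance between log2 CPM (prior count 2) centred over the 8 libraries, among genes with a mean of at least 50 counts. Levels relative to markers used the mean log2 CPM of 12 differentiated or 6 basal keratinocyte markers. Named genes were the 10, up to 4 per direction and list with the largest log2 fold change past the threshold, the paralog of highest CPM in each family, *Flg*, *Myd88*, the neighbours of *Tmem79* past the test, the 5 nearest profiles and markers. *Xist* and *Ddx3y* were added with earlier results known, and *Elovl1*, *Elovl5*, *Pnpla5*, *Krt1*, *Krt16* and *Pnpla2*, which the rule does not name, were chosen after their values were seen. Alternatives were RLE factors, library size only, filterByExpr, no filter, DESeq2 1.42.0, voom of limma 3.58.1, the replicate number as a block and each library left out in turn.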

Additional observations from a re-analysis of the deposited data

How the results depend on the processing

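*Tmem79*, *Elovl4*, *Cyp4f39*, *Alox12b* and *Aloxe3* were called lower in all 15 alternative fits. Leaving out 1 library at a time gave log2 fold changes of -1.91 to -1.76, -0.72 to -0.56, -0.75 to -0.52, -0.65 to -0.48 and -1.08 to -0.94 for these 5, -0.44 to -0.12 for *Abca12*, 0.32 to 0.49 for *Cers3* (the call lost in 6 of 8), -0.23 to 0.015 for *Pnpla1*, -0.14 to 0.087 for *Sdr9c7* and 0.14 to 0.26 for *Abhd5*. *Cers3* also lost its call with voom (0.38), and *Sdr9c7* changed sign there (-0.0037). Scaling by library size only raised the median of all genes from 0.01 to 0.19 and called 4638 genes higher and 1326 lower (22.2% of calls lower, against 53.0%). Of the genes listed by function or family it called 24 higher and 32 lower, against 10 and 49. The same scaling turned *Pnpla1* to 0.027, called *Abhd5* higher (0.37) and put *Tmem79* at 55.6 CPM in ft/ft and *Abca12* at 152 CPM in ft/ftMyD88-/-. Leaving out 1 library called 1464 to 2260 genes higher and 1851 to 2408 lower, the fewest higher without ft/ft replicate 4. Of the listed genes, 4 to 12 were then called higher (4 without ft/ft replicate 3, 5 without ft/ft replicate 4) and 40 to 49 lower. Neighbours of *Tmem79* called higher were 2, with 4 under RLE factors, library size only, filterByExpr and DESeq2, and 1 to 4 with a library left out (1 without ft/ft replicate 3 or 4, 4 without ft/ftMyD88-/- replicate 3). Unless the setting's own construction shows it, the cause was not tested.

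Relative to differentiated keratinocyte markers the differences were -1.36 (*Tmem79*), 0.20 (*Abca12*), 0.88 (*Cers3*), -0.15 (*Elovl4*), -0.15 (*Cyp4f39*), -0.083 (*Alox12b*), -0.50 (*Aloxe3*), 0.36 (*Pnpla1*), 0.49 (*Sdr9c7*) and 0.69 (*Abhd5*). Relative to basal markers they were, in the same order, -1.23, 0.33, 1.01, -0.015, -0.016, 0.0496, -0.37, 0.49, 0.63 and 0.82, so *Alox12b* changed sign.

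Both groups number their libraries 1 to 4. Same-numbered libraries did not deviate together (correlations of -0.35, 0.04, 0.07 and -0.03, with 1 of 4 libraries matching its own number best), so the number is not taken as a pairing. With the replicate block 1895 genes were called higher and 2144 lower, the same 6 of the 10 genes were called, and *Tmem79* was at -1.86.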
